A study of Mus musculus with 20 samples.

Results

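Naive bone marrow-derived macrophages (BMDM) that had received exosomes made by BMDM in high glucose (BMDM–HG-exo, n = 4 libraries) were compared with naive BMDM that had received exosomes made by BMDM in normal glucose (BMDM–NG-exo, n = 4 libraries). Every gene whose mean was 10 normalized counts or more in these 8 libraries entered the comparison, which left 14390 of the 14456 listed genes, and 8 of the 20 libraries of the mouse long RNA table. The recipient cells of both groups were grown from the bone marrow of wild-type C57BL/6 mice in macrophage colony-stimulating factor and took up vesicles for a day at the same particle concentration. The donor BMDM were of the same origin and had been kept at 25 mM glucose (high glucose) or at 5.5 mM (normal glucose, to which 19.5 mM mannitol was added to balance the osmolarity) before their vesicles were collected on a density gradient. A further set of 4 libraries from naive BMDM given only PBS stood beside both groups as the level without vesicles. The label of each library carries a date, and each of 4 dates occurs once in every group, so that the BMDM–HG-exo and BMDM–NG-exo libraries formed 4 pairs, numbered 1 to 4. Per the study, each sample came from a separate exosome preparation. The labels do not say what the date marks or whether the pairs came from different mice, so the p-values measure the spread between these libraries.

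Exosomes are small vesicles that cells release with RNA, protein and lipid of their own, and macrophages take them up and also shed them. Macrophages in the arterial wall and in adipose tissue clear lipids and dying cells, present antigen and secrete matrix proteins and chemokines, and high glucose is known to alter many of these functions in diabetes. The question of this comparison was whether the glucose that the donor macrophages had met changed what their exosomes did to the RNA of macrophages that had not met it.

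The reads recovered from the normalized counts added up to between 40751064 and 56310712 per BMDM–NG-exo library and to between 42356003 and 45905440 per BMDM–HG-exo library. The BMDM–NG-exo library of pair 1 stood apart as the deepest, and Gm23935, a gene of 57 bases of the miRNA class that took between 10.6% and 15.2% of the reads of these 8 libraries, had its highest share there. The BMDM–HG-exo library of pair 1 had the lowest mitochondrial share, 7.45%, while the other 7 libraries lay between 8.05% and 8.78%. The number of calls is therefore also given without pair 1, as are the genes and lists on which it weighed most. All 13 listed macrophage markers were measured, and their normalized counts summed to between 794100 and 862980 per library.

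The response to the glucose history of the exosomes was small. Of the 14390 genes, 32 had an adjusted p-value under 0.05 (limma with the pair as a block, Benjamini-Hochberg adjustment), which is 0.222% of them. Of these, 15 were higher with BMDM–HG-exo, 0.104% of the genes tested, and 17 were lower, 0.118%. Their median absolute log2 fold change was 0.20, with a range from 0.10 to 1.52, while that of all genes was 0.07. Before adjustment, 1196 genes had a p-value under 0.05, of which 572 were higher, and 720 would be expected with no difference. The call depended on the pairing. Without the pair in the fit, 1 gene, Thbs1, kept an adjusted p-value under 0.05, and the other 31 had values between 0.0808 and 0.801. Without pair 1, 8 genes were called, of which all were among the 32, and these were Thbs1, Slco4a1, Selenop, Hipk2, Spp1, F13a1, Itgam and Ccl6. The other 24 had adjusted p-values between 0.0645 and 0.486 without pair 1. Thbs1, Slco4a1, Selenop, Hipk2 and Spp1 were called whichever pair was left out.

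**Figure D1:**
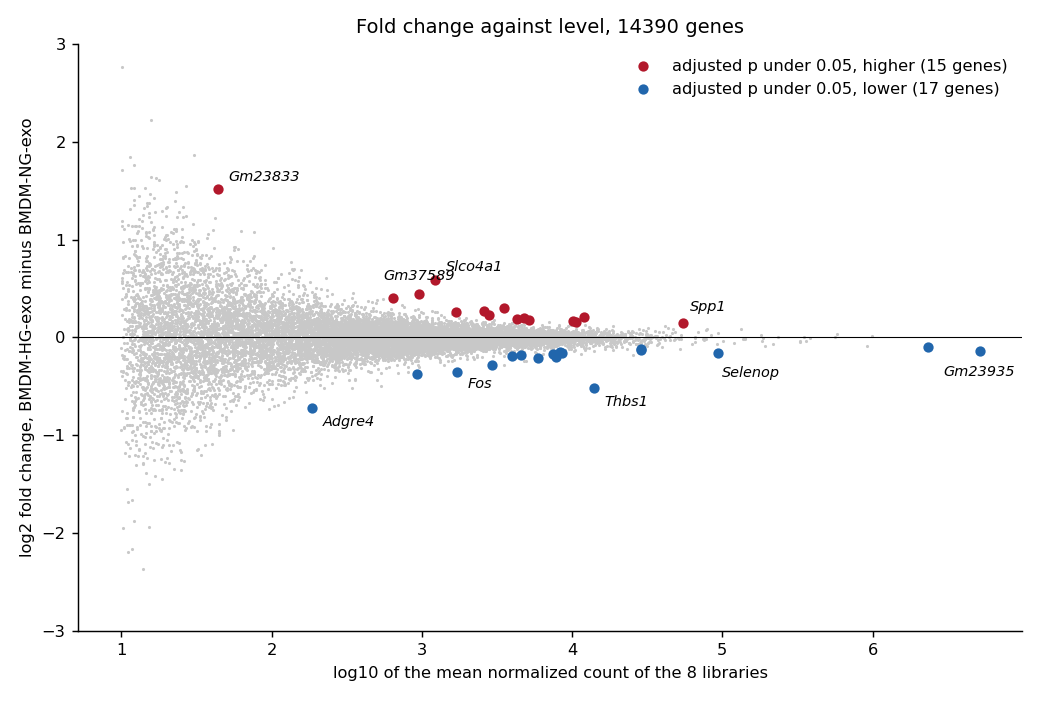
Log10 of the mean normalized count of the 8 libraries (x axis) against the log2 fold change of BMDM–HG-exo over BMDM–NG-exo (y axis) for 14390 genes, 1 point a gene. The 15 genes higher and 17 genes lower at an adjusted p-value under 0.05 are coloured, and most of them are abundant genes with small fold changes, with Gm23833 and Adgre4 as the exceptions at low counts.

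Of the 32 genes, 26 were protein-coding and 27 had a mean of 1000 normalized counts or more, against 5507 of all genes tested. In 29 of them the 4 pairs went the same way, and in 18 the 4 libraries of one group lay wholly above or below the 4 of the other. Over all genes, 1118 were higher in all 4 pairs (7.77%) and 1161 were lower (8.07%), and the libraries did not overlap for 267 genes above (1.86%) and 289 below (2.01%). The 32 genes were picked by a paired fit to these same libraries, which favours genes with such values. The counts of 29 and 18 describe them and add no support to the calls. In bulk samples such as these, a change in the share of a kind of cell and a change in the RNA per cell cannot be told apart.

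Among the genes that rose, the first by p-value was Slco4a1, which encodes an organic anion transporter that carries thyroid hormone and prostaglandins. It lies on chromosome 2 from 180456245 to 180474867 (GRCm38, plus strand). In pairs 1 to 4 it had 1365, 856, 816 and 921 normalized counts with BMDM–NG-exo, and 1899, 1367, 1188 and 1441 with BMDM–HG-exo. Every pair was higher with BMDM–HG-exo, although the groups overlapped because both libraries of pair 1 were high. Its log2 fold change was 0.58 (95% interval 0.45 to 0.72, adjusted p = 3.44e-06), with an adjusted p of 0.0808 without the pairs. The PBS libraries of the same dates had 1748, 1314, 1286 and 1554. Their mean of 1475 was next to the BMDM–HG-exo mean of 1474 and above the BMDM–NG-exo mean of 989, and each BMDM–NG-exo library lay below the PBS library of its own date.

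Slc5a3, the sodium and myo-inositol cotransporter by which cells gather an osmolyte, had 2684, 2069, 2193 and 2442 normalized counts with BMDM–NG-exo and 3213, 2641, 2439 and 2999 with BMDM–HG-exo. All 4 pairs were higher, for a log2 fold change of 0.27 ± 0.05 (SE, adjusted p = 0.00935). Its PBS mean of 2384 was close to the BMDM–NG-exo mean of 2347. Slc5a3 shares exon sequence on the same strand with Mrps6, so reads of the shared part may be assigned to either. Slc6a12, the betaine and GABA transporter of the same osmolyte system, was looked at after the values were seen. It was higher in 4 of 4 pairs, with means of 280 ± 81.5 against 181 ± 40.6 (SD, n = 4) and an adjusted p of 0.0900, and its PBS mean was 301.

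Txnrd1, the cytosolic thioredoxin reductase and a classic target of the antioxidant factor NRF2, rose from 10095 ± 703 to 11223 ± 533 normalized counts (SD, n = 4), a log2 fold change of 0.15 (adjusted p = 0.0390). Of the 32 listed genes of the NRF2 and antioxidant response it was the only one that passed, and 4 genes of the list were higher and 1 was lower in all 4 pairs. Gclc, which makes the rate-limiting subunit for glutathione, had means of 1708 and 1455 and an adjusted p of 0.126. Mt1, a metallothionein, had a mean of 1862 with BMDM–HG-exo and of 2163 with BMDM–NG-exo, at an adjusted p of 0.0776. Ampd3, an AMP deaminase that feeds purine salvage, rose from 4021 ± 138 to 4585 ± 302 (SD, n = 4) with no overlap between the groups (log2 fold change 0.19, adjusted p = 0.0382).

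The 250 bases before a transcription start are shown for Slco4a1, Slc5a3 and Txnrd1. These 3 are among 9 called genes that rose here and, as given below, rose in BMDM kept in high glucose as well. Of the 9, these 3 had the largest glucose fold changes. The sequences are those of RefSeq on GRCm38.p6, read 5′ to 3′ on the plus strand, from chr2:180455995-180456244, chr16:92058072-92058321 and chr10:82858956-82859205. The Slco4a1 window is that of the first of 2 listed starts. Of the 3 listed Txnrd1 starts, the window shown is the only one with a match to the antioxidant response element core, which the capitals mark, and was chosen for it.
Slco4a1: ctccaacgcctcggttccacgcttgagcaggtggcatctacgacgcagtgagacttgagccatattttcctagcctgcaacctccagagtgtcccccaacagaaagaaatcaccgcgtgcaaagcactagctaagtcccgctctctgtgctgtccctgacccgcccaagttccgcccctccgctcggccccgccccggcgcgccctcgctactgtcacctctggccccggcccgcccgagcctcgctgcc
Slc5a3: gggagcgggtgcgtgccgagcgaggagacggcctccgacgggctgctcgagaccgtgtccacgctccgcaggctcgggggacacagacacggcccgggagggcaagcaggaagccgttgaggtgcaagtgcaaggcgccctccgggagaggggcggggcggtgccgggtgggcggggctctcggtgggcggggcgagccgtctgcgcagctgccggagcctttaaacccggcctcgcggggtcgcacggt
Txnrd1: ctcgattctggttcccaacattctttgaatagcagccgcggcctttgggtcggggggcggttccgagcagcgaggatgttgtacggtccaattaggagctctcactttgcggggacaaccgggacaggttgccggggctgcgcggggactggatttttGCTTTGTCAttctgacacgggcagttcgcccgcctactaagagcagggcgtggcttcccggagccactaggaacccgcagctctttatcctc

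The motifs on both strands of these upstream windows were the antioxidant core TGACNNNGC, the AP-1 site TGANTCA and the cyclic AMP response element TGACGTCA. The antioxidant core and the AP-1 site can overlap. Of the 32 called genes, 26 had a listed promoter, and 3 of these, Txnrd1, Kcnq1ot1 and Fcgrt, held the antioxidant core (11.5%). Txnrd1 was the only one of the 9 genes that rose in both comparisons to hold it. Of the 9710 tested genes with a listed promoter 14% held it, and of all 27025 genes with one 11.5%. The letters of the AP-1 site were in 0 of the 26 (5.35% of the tested genes, 7.82% of all) and those of the cyclic AMP response element also in 0 (3.06% of the tested genes, 1.77% of all). No match says only that these letters are not in these windows.

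Hipk2, a nuclear kinase that phosphorylates p53, is singled out by the study as a possible route by which BMDM–HG-exo raise hematopoiesis and proliferation. In pairs 1 to 4 it had 12082, 10351, 11056 and 11224 normalized counts with BMDM–NG-exo and 13846, 12107, 12591 and 13118 with BMDM–HG-exo. All BMDM–HG-exo libraries lay above all others, and the log2 ratios of the pairs, 0.20, 0.23, 0.19 and 0.23, were close to each other. The fitted log2 fold change was 0.21 (95% interval 0.15 to 0.27, adjusted p = 0.000263, and 0.0808 without the pairs). The PBS mean of 10877 ± 417 (SD, n = 4) was next to that of BMDM–NG-exo, 11178 ± 711.

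Spp1 encodes osteopontin, a secreted glycoprotein of lipid-laden and fibrotic tissue macrophages. Its normalized counts were 53467, 53764, 49781 and 49599 with BMDM–NG-exo and 61126, 58369, 54569 and 54110 with BMDM–HG-exo. The groups did not overlap, and the log2 fold change was 0.14 (SE 0.02, adjusted p = 0.00213). With PBS the mean was 47288, below both exosome groups.

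Further genes that rose take part in adhesion, small GTPase signalling and transcription. L1cam, a cell adhesion molecule best known from neurons, went from 1542 ± 81.6 to 1850 ± 80.6 normalized counts (SD, n = 4) with log2 ratios between 0.24 and 0.28 in the pairs (adjusted p = 0.0330). L1cam overlaps the listed gene Arhgap4, and Nav2 overlaps Gm2788. Rasgrp3, an exchange factor for Ras and Rap1 below immune receptors, rose by a log2 fold change of 0.23 (adjusted p = 0.0390), and Ralgapa2, a subunit of the complex that switches off the small GTPase Ral, by 0.18 (adjusted p = 0.0345). Nav2, a microtubule-associated neuron navigator gene, and Zbtb20, a zinc finger repressor that acts in innate immune signalling, rose by 0.16 and 0.20 (adjusted p = 0.0314 and 0.0265). Nav2 and Rasgrp3 did not overlap between the groups, whereas Ralgapa2 and Zbtb20 did.

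The other 4 genes that rose are not annotated as protein-coding. Kcnq1ot1, the long antisense RNA of the imprinted Kcnq1 domain, had 2771, 3136, 3800 and 2906 normalized counts with BMDM–NG-exo and 3832, 3298, 4170 and 4162 with BMDM–HG-exo (log2 fold change 0.30, adjusted p = 0.0102). The rise was mostly in pairs 1 and 4, with log2 ratios of 0.47 and 0.52 against 0.07 and 0.13 in pairs 2 and 3, and its adjusted p was 0.17 without pair 1 and 0.137 without pair 4. Gm37589, which is annotated only as a transcript still to be tested by experiment (the class TEC), rose by 0.44 (adjusted p = 0.0265), but in pair 2 its ratio was -0.02, and without pair 1, where the ratio was highest at 0.71, its adjusted p was 0.29. Gm37084 of the same class and Gm23833, an RNA gene of 252 bases on chromosome 17, are named here after their values were seen. Gm37084 went from 556 ± 41.1 to 735 ± 68.3 and Gm23833 from 22.5 ± 5.56 to 65.5 ± 8.59 normalized counts (SD, n = 4). Neither overlapped between the groups, and both had an adjusted p of 0.0468.

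The median log2 fold change of the 759 genes of the TEC class was 0.17, and 14.9% of them were higher in all 4 pairs, against 7.77% of all genes. Sense-intronic genes (112 tested) had a median of 0.16, with 13.4% higher in all 4 pairs. Protein-coding genes that span over 300 kb (202 tested) were higher in all 4 pairs in 18.3% of cases, and those that span under 10 kb (2791 tested) in 4.73%. The called protein-coding genes that rose had a median span of 63.8 kb, those that fell one of 12.0 kb, and all that were tested one of 23.7 kb. The share of reads in genes that span over 100 kb moved along with this. In pairs 1 to 4 it was 10.2%, 10.9%, 11.2% and 10.6% with BMDM–NG-exo and 10.8%, 11.1%, 11.3% and 11.2% with BMDM–HG-exo, so it was higher in each pair and most so in pairs 1 and 4. The reads of Gm23935 are part of the same totals, so its share and that of the long genes are not independent. The Gm23935 share fell from 15.2% with BMDM–NG-exo to 13.1% with BMDM–HG-exo in pair 1. In pair 4 it fell from 13.2% to 11.4%, and in the other pairs it changed little. The share of the long genes was not computed without Gm23935, and its part in the result was not tested.

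Thbs1, the gene of thrombospondin 1, a secreted matrix glycoprotein that binds CD47 and CD36 and activates TGF-β, fell most clearly. It lies on chromosome 2 from 118111876 to 118127133 (GRCm38). In pairs 1 to 4 it had 14208, 20026, 15996 and 15650 normalized counts with BMDM–NG-exo and 9568, 11753, 11693 and 13074 with BMDM–HG-exo. Every BMDM–HG-exo library lay below every BMDM–NG-exo library and below every PBS library, which had 15545, 17841, 18418 and 15198. The log2 fold change was -0.51 (95% interval -0.60 to -0.42, adjusted p = 1.61e-08), and the adjusted p was 0.00028 without the pairs. The drop was smallest in pair 4, with a log2 ratio of -0.26, and largest in pair 2, at -0.77.

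**Figure D2:**
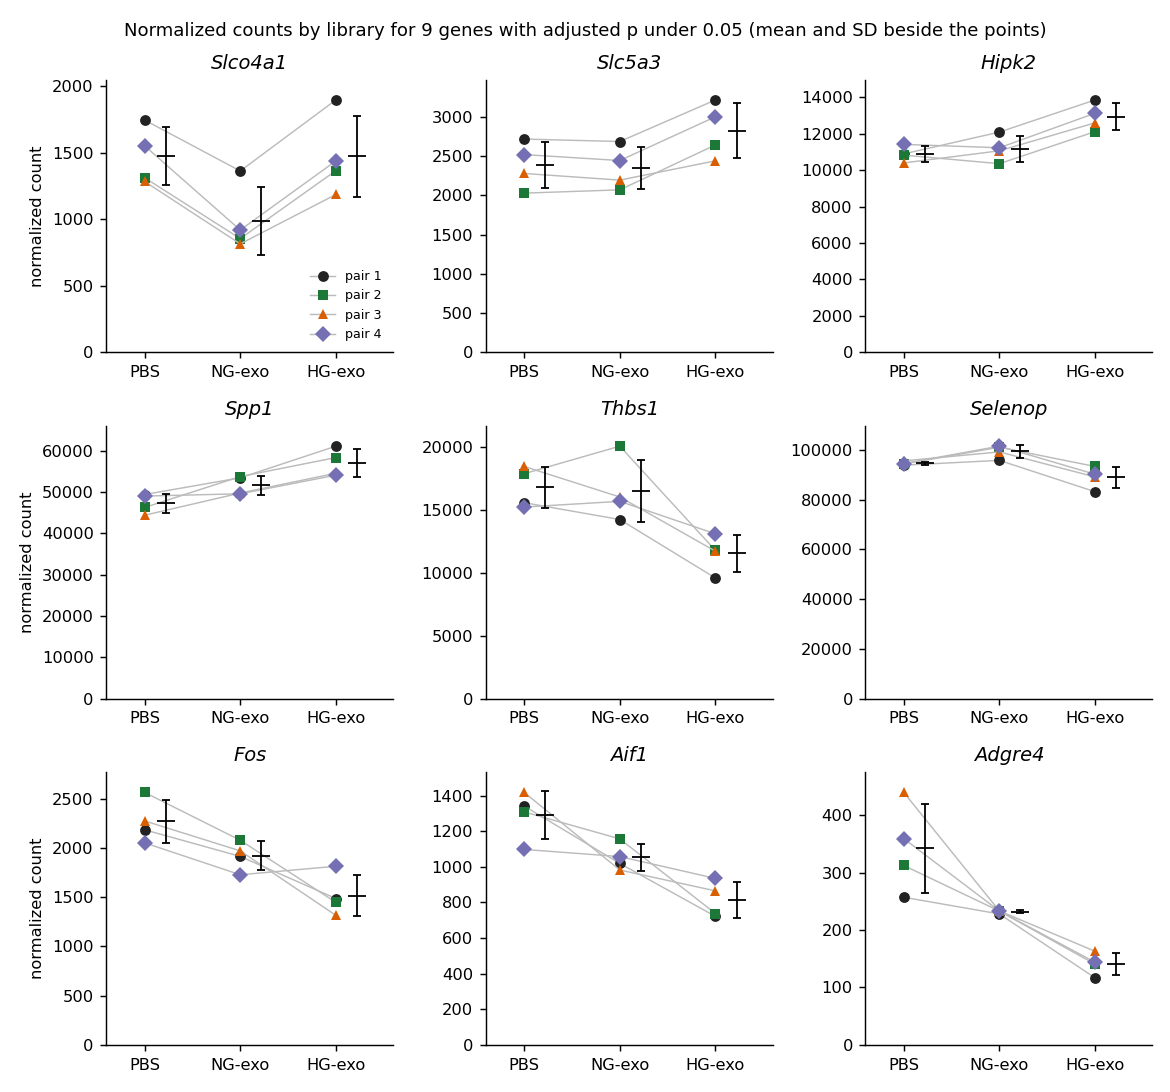
Normalized counts (y axes, from 0) of 9 called genes in the PBS group and in both exosome groups, 1 point a library. Grey lines join the libraries of a pair, and the bars beside the points are the mean and SD of the 4 libraries. The BMDM–HG-exo libraries lay below all others for Thbs1 and above all others for Hipk2, the Slco4a1 mean was lowest with BMDM–NG-exo, and Fos, Aif1 and Adgre4 stepped down from PBS through BMDM–NG-exo to BMDM–HG-exo.

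Other genes that fell encode secreted proteins. Selenop, the selenium transport protein, had 95794, 101078, 99196 and 101503 normalized counts with BMDM–NG-exo and 83192, 93338, 89132 and 90201 with BMDM–HG-exo, without overlap. Its log2 fold change was -0.16 (SE 0.02, adjusted p = 0.000124). F13a1, the catalytic subunit of coagulation factor XIII and a marker of resident macrophages, fell from 3219 ± 267 to 2637 ± 204 (SD, n = 4, adjusted p = 0.00524). Ccl6, a chemokine of the CC family, fell from 6351 ± 355 to 5493 ± 211 (adjusted p = 0.00524). Neither gene overlapped between the groups. C1qc, a chain of complement C1q, and Pltp, the phospholipid transfer protein, fell by 0.12 each on the log2 scale (adjusted p = 0.0390 each), with overlap between the groups. Pltp shares exon sequence with Ctsa on the opposite strand.

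A second group of fallen genes encodes surface receptors and enzymes of macrophages. Itgam (CD11b), the alpha chain of complement receptor 3, had 7668, 8931, 8382 and 8533 normalized counts with BMDM–NG-exo and 6611, 7301, 7628 and 7678 with BMDM–HG-exo. All pairs fell, and the groups overlapped only by the highest BMDM–HG-exo library (log2 fold change -0.20, adjusted p = 0.00524). With PBS its mean was 9480. Itgam overlaps the listed gene Gm49368. Aif1 (Iba1), an actin-binding protein of macrophages, had 1019, 1157, 982 and 1057 with BMDM–NG-exo and 722, 738, 865 and 935 with BMDM–HG-exo. The groups did not overlap (log2 fold change -0.38, adjusted p = 0.0382), and the 4 PBS libraries were at 1341, 1308, 1418 and 1098.

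Adgre4, an adhesion receptor of the F4/80 family, had the largest fold change of the 17 genes that fell. It had 228, 233, 233 and 233 normalized counts with BMDM–NG-exo and 117, 141, 163 and 144 with BMDM–HG-exo, a log2 fold change of -0.72 (95% interval -1.05 to -0.39, adjusted p = 0.0468). The 4 BMDM–NG-exo libraries were unusually close to each other, with an SD of 2.57, whereas the PBS libraries ran from 257 to 440. Mrc1, the mannose receptor, Fcgrt, the neonatal Fc receptor, and Entpd1 (CD39), which breaks down extracellular ATP, fell by 0.15, 0.20 and 0.17 on the log2 scale (adjusted p = 0.0390, 0.0314 and 0.0314). All 3 fell in each of the 4 pairs, but of them only Fcgrt did so without overlap between the groups.

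Fos, the immediate early gene of the AP-1 complex, had 1916, 2080, 1972 and 1729 normalized counts with BMDM–NG-exo and 1487, 1448, 1316 and 1815 with BMDM–HG-exo. It fell in pairs 1 to 3 and not in pair 4, where the log2 ratio was 0.07, and the fitted change was -0.35 (adjusted p = 0.0314). Its adjusted p was 0.104, 0.168 and 0.22 without pairs 1, 2 and 3, 0.000152 without pair 4, where the log2 fold change was -0.49, and 0.384 in DESeq2 with the pairs. Of the 26 tested immediate early and AP-1 genes, Fos was the only one that passed. Junb had means of 2856 with BMDM–HG-exo and 3156 with BMDM–NG-exo (adjusted p = 0.269), and Zfp36, which encodes the mRNA-destabilizing protein tristetraprolin, had 3770 and 4255 (adjusted p = 0.141).

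Glul, glutamine synthetase, fell from 9013 ± 115 to 8096 ± 268 normalized counts (SD, n = 4, adjusted p = 0.0390). Dazap2, Gm23935 and mt-Rnr2 are named after their values were seen. Dazap2, a small adaptor protein gene, went from 4880 ± 87.7 to 4310 ± 124 without overlap (adjusted p = 0.0390). Gm23935 was lower mainly in pairs 1 and 4, with log2 ratios of -0.27 in each against 0.01 and -0.01 in pairs 2 and 3, and its adjusted p of 0.0390 became 0.374 without pair 1. The mitochondrial 16S ribosomal RNA mt-Rnr2 fell by 0.10 on the log2 scale (adjusted p = 0.0397, and 0.486 without pair 1), and its largest drop was in pair 1, where the mitochondrial share, to which it belongs, was lowest with BMDM–HG-exo.

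**Figure D3:**
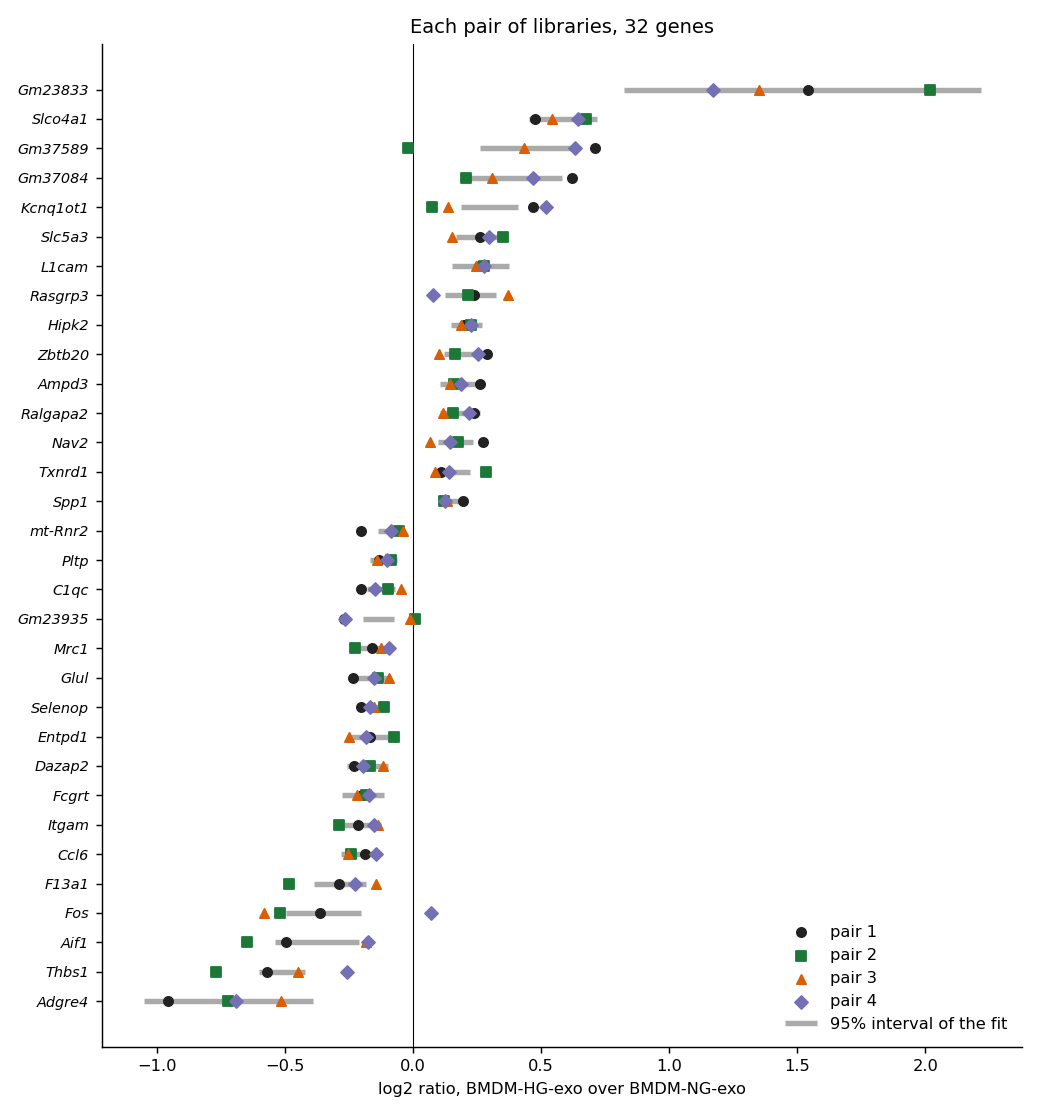
Log2 ratio of BMDM–HG-exo over BMDM–NG-exo (x axis) in each of the 4 pairs (symbols) for the 32 called genes, with the 95% interval of the fitted log2 fold change as a grey bar. The 4 symbols lie on one side of 0 for 29 genes, and Fos, Gm37589 and Gm23935 each have a pair at or across 0.

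Bcl2, Abca1, Ager and Slc2a1 are further genes that the study discusses. The study reports that BMDM–HG-exo raised Bcl2 and lowered Abca1, the latter also by qRT-PCR. For RAGE (Ager) and GLUT-1 (Slc2a1) it reports no difference between cells given either kind of exosome. Its RNA-seq contrast set BMDM–HG-exo against the BMDM–NG-exo and PBS groups as one, whereas the values here are for BMDM–HG-exo against BMDM–NG-exo alone. In this comparison each of the 4 genes had an adjusted p-value above 0.05. Bcl2, which blocks mitochondrial apoptosis, had 240, 224, 303 and 226 normalized counts with BMDM–NG-exo and 324, 284, 283 and 346 with BMDM–HG-exo. It was higher in 3 of 4 pairs (log2 fold change 0.32, 95% interval 0.04 to 0.60, adjusted p = 0.505), and its PBS libraries ran from 181 to 241. Abca1, the cholesterol and phospholipid exporter, was lower in 4 of 4 pairs, with a mean of 16583 ± 671 against 17691 ± 1084 (SD, n = 4, log2 fold change -0.09, adjusted p = 0.271) and 19784 with PBS. Slc2a1, the glucose transporter GLUT1, had means of 1476 and 1371 (adjusted p = 0.724). Ager, the receptor for advanced glycation end products, was near the detection limit of the table, with 17.1 to 42.3 normalized counts in the 8 libraries. An exact two-sided sign-flip test of the 4 pair ratios gave p = 0.13 for Hipk2 and Abca1, which is the smallest value that 4 pairs allow, so that no gene could reach 0.05, and 0.25 for Bcl2, Ager and Slc2a1. Adjusted over these 5 genes, all had 0.25.

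Set beside PBS, the called genes differed in which exosome mean lay nearer to it. The PBS mean lay nearer to the BMDM–NG-exo mean for 28 of the 32 genes and nearer to the BMDM–HG-exo mean for 4, which were Slco4a1, Ampd3, Entpd1 and Mrc1. For 19 genes the BMDM–HG-exo mean lay further from PBS than the BMDM–NG-exo mean in the same direction, for 10 PBS lay between the exosome groups, and for 3 it lay beyond BMDM–HG-exo. Aif1 is an example of the first kind, with means of 1291, 1054 and 815 from PBS to BMDM–HG-exo, and Spp1 another, with 47288, 51652 and 57043. Mrc1 is of the last kind, with 8808 ± 790 in BMDM–NG-exo against 7905 ± 486 in PBS and 7914 ± 612 in BMDM–HG-exo (SD, n = 4). These are descriptions of group means, with no test, and the shares over all tested genes were not counted.

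Over the lists of genes, most medians were within 0.05 of 0 on the log2 scale, where the median of all genes was -0.001. The lists were written with earlier results of these data known, so their counts are descriptions and no test. Of the 32 called genes, 27 had a mean of 1000 or more, and most macrophage markers are abundant too. The shares over all genes are therefore not a background of like abundance. The list of macrophage markers had 6 of 13 genes lower and 0 higher in all 4 pairs, and 3 of them, Itgam, Aif1 and C1qc, were called lower, against 0.118% of all genes. In all, 11 of the 13 had a fold change below 0. Fcgr1 and C1qa were lower in all 4 pairs without being called, with log2 fold changes of -0.19 and -0.13 (adjusted p = 0.133 and 0.130), and Fcgr1 did not overlap between the groups. Lyz2 had means of 561049 and 559664, and Csf1r and Adgre1 had log2 fold changes of -0.03 and -0.05. Among integrins and matrix genes, 11 of 29 were lower and 5 were higher in all 4 pairs (8.07% and 7.77% over all genes), with Thbs1 and Itgam called lower and Spp1 called higher, where 0.222% of all genes were called. Of the phagocytic and scavenger receptors, 8 of 28 were lower and 1 was higher in all 4 pairs, and Mrc1 and Adgre4 were called lower. Of the hematopoiesis regulators 9 of 34 were lower and 2 were higher in all 4 pairs, and the only called gene, Hipk2, was higher. Kdm6b, a histone demethylase of the latter list, had 426 ± 44.0 normalized counts with BMDM–HG-exo and 574 ± 38.3 with BMDM–NG-exo (SD, n = 4) without overlap, at an adjusted p of 0.0757.

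Chemokines had a median log2 fold change of -0.13 over 15 genes, and 4 were lower and 1 was higher in all 4 pairs. Ccl6 was the only one called. Ccl9, its neighbour on chromosome 11, had means of 11727 and 12828 without overlap (adjusted p = 0.0757). Cxcl1 was at 0 to 9.19 normalized counts with BMDM–HG-exo and at 11.8 to 25.3 with BMDM–NG-exo, at an adjusted p of 0.306. None of the 16 cytokine genes was called, and Tnf, higher in 4 of 4 pairs, had an adjusted p of 0.615.

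The lists for MHC class II presentation, mitochondrially encoded oxidative phosphorylation and the type I interferon response did not go the same way in the 4 pairs. The MHC class II median (13 genes) was -0.36 in pair 1 and -0.02, 0.03 and -0.11 in pairs 2 to 4. Without pair 1 the median was -0.05 in place of -0.14. Cd74, the invariant chain, had an adjusted p of 0.0933. The median of the 11 mitochondrially encoded genes was -0.30 in pair 1 against -0.09, 0.02 and -0.05 in the others, and -0.04 without pair 1 in place of -0.13. The interferon list (37 genes) had medians of -0.17 and -0.20 in pairs 1 and 2 and of 0.11 in both pair 3 and pair 4. Over all pairs it was -0.04, without pair 1 it was 0.02, and 0 of its genes were called. Oasl2, for example, had log2 ratios of -0.32, -0.43, 0.09 and 0.05. No gene was called either in the lists for cell cycle, BCL2 family, glycolysis and sugar transport, NF-κB and its feedback genes, nuclear-encoded oxidative phosphorylation, sterol and fatty acid synthesis, unfolded protein and amino acid stress, lysosome or actin cytoskeleton. The list for cholesterol efflux had Pltp as its only called gene, and that for ITAM signalling had Rasgrp3. Of the 21 cholesterol efflux genes, 6 were lower and 3 were higher in all 4 pairs (8.07% and 7.77% over all genes).

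**Figure D4:**
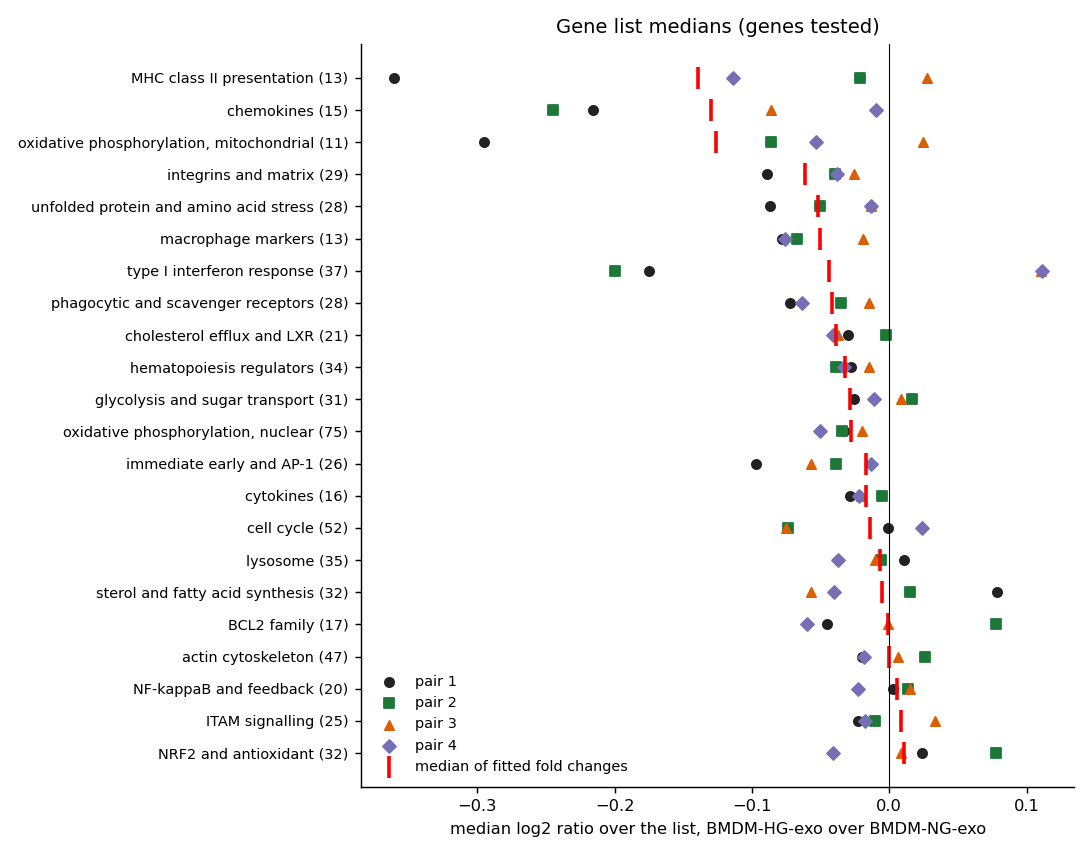
Median log2 ratio of BMDM–HG-exo over BMDM–NG-exo (x axis) over the genes of each list, in each of the 4 pairs (symbols) and for the fitted fold changes (red bars), with the number of genes tested in brackets. The interferon list lies on opposite sides of 0 in pairs 1 and 2 against pairs 3 and 4, and the MHC class II and mitochondrial lists are lowest in pair 1.

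Markers of other cell types mostly had low counts, with Ighm and Vwf as the main exceptions. Of the lists for neutrophils, B cells, T and NK cells, fibroblasts, endothelium, erythroid cells and osteoclasts, none held a called gene. The summed neutrophil markers (5 of 9 listed) ran from 252 to 306 normalized counts with BMDM–HG-exo and from 165 to 312 with BMDM–NG-exo. Those of fibroblasts (4 of 7) ran from 121 to 229 and from 224 to 305, those of T and NK cells (1 of 8) from 55.9 to 75.3 and from 63.8 to 117, those of osteoclasts (4 of 6) from 342 to 513 and from 351 to 490, and those of erythroid cells (1 of 9) from 3.93 to 36.7 and from 13.6 to 19.2. All 4 fibroblast genes had a fold change below 0, and Col1a1 had -0.64 on the log2 scale (adjusted p = 0.452). The B cell sum (2 of 6, 2146 to 2582 and 2416 to 2574) was nearly all Ighm, and the endothelial sum (2 of 6, 8326 to 9531 and 7678 to 8710) nearly all Vwf. Vwf was higher in all 4 pairs, with means of 8534 with BMDM–HG-exo, 8036 with BMDM–NG-exo and 6471 with PBS (adjusted p = 0.462). The lists for dendritic cells and mast cells had no gene among those tested.

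The 8 other libraries, of BMDM kept in high or in normal glucose themselves, share no library with this comparison, so the direction of each called gene could be read there. With high glucose 1116 genes were higher (7.74% of 14425) and 798 were lower (5.53%) at an adjusted p-value under 0.05. Of the 32 genes called between the exosome groups, 17 were also called with glucose, which is 53.1% of the 32 and 0.888% of the 1914. The direction was the same for 16 and opposite for F13a1. Most of the 32 genes are abundant, with a mean of 1000 or more for 27. The share called with glucose among genes of like abundance was not counted. Of the 15 genes higher with BMDM–HG-exo, 9 were higher with high glucose: Slco4a1 (log2 fold change 3.15), Slc5a3 (1.59), Txnrd1 (0.69), Ampd3 (0.46), Spp1 (0.43), L1cam (0.35), Hipk2 (0.33), Rasgrp3 (0.24) and Ralgapa2 (0.19). Of the 17 lower genes, 7 were lower with high glucose: Entpd1 (-0.61), Thbs1 (-0.57), Mrc1 (-0.47), Pltp (-0.33), Selenop (-0.32), Fcgrt (-0.20) and Glul (-0.14). F13a1 went up with glucose, by 0.38, from 2363 ± 206 to 3067 ± 294 (SD, n = 4).

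The sizes of the responses are given side by side. Slco4a1 went from 302 ± 160 to 2519 ± 574 normalized counts (SD, n = 4) with high glucose, beside 989 and 1474 in the exosome groups. Thbs1 fell from 12204 ± 2284 to 8191 ± 1546 with high glucose, a log2 fold change of -0.57 beside -0.51 with the exosomes. The differences between these responses were not tested. The other 15 genes were not called with glucose. Among them Aif1, Fos, Kcnq1ot1, Gm37589, Zbtb20 and Nav2 had glucose log2 fold changes between -0.02 and 0.01, and Itgam and Ccl6 had -0.07 and -0.09.

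**Figure D5:**
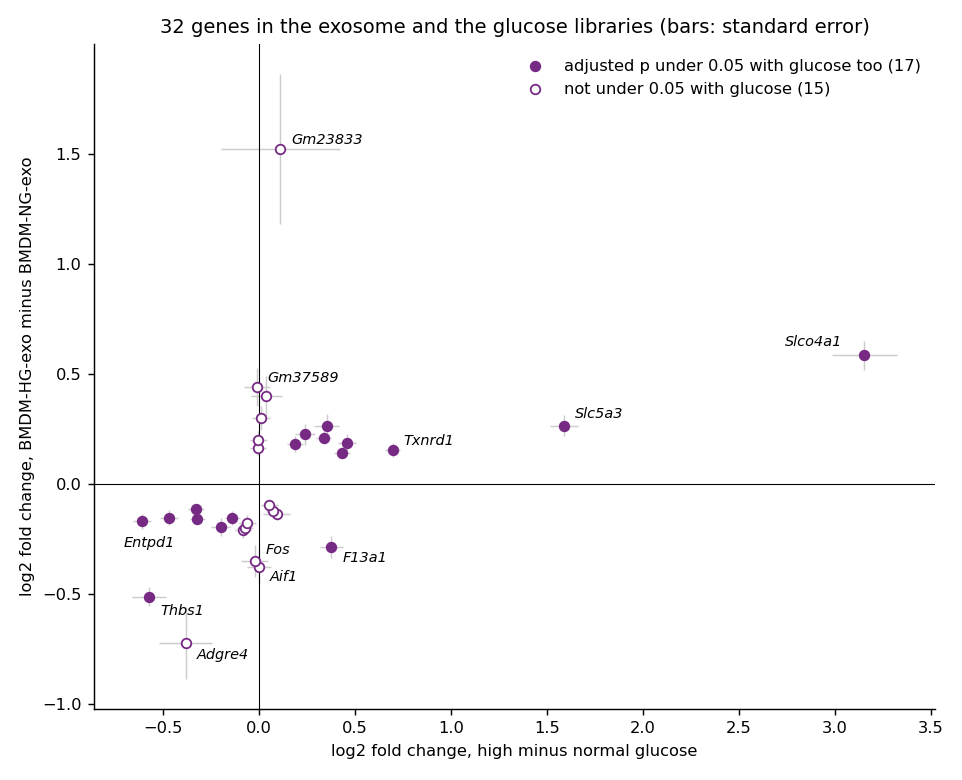
Log2 fold change in BMDM kept in high against normal glucose (x axis) against that of BMDM–HG-exo over BMDM–NG-exo (y axis) for the 32 called genes, with standard errors as bars. Filled points are the 17 genes with an adjusted p-value under 0.05 in both, and of these only F13a1 lies in a quadrant of opposite signs.

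Seen from the other side, 17 of the 1914 genes called with glucose were called between the exosome groups. Of the 1116 genes higher with high glucose, 12.8% were higher and 6.45% lower in all 4 exosome pairs, and of the 798 lower ones 15.3% were lower and 4.89% higher, while among the 12476 genes not called with glucose the shares were 7.50% and 7.75%. Their median exosome log2 fold changes were only 0.007 and -0.03. Among the genes with a large rise in high glucose, Slco4a1, Slc6a12 and Slc5a3 (log2 fold changes of 3.15, 2.88 and 1.59) were higher in all 4 exosome pairs. Several others, read here after their values were seen, had pair ratios of mixed sign. Mixed sign is the common case, as 7.77% of all genes tested were higher and 8.07% lower in all 4 pairs. Acod1, which makes the itaconate enzyme, rose by 1.59 with glucose and had ratios of -0.46, -0.76, -0.07 and 0.38. Fxyd2 (1.53) had ratios of -0.26, 0.08, 0.39 and 0.09. C3, complement component 3, rose by 1.05 with glucose and had ratios of -0.37, -0.57, 0.28 and 0.02 in the exosome pairs.

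The pairs were also compared with each other across genes. The Pearson correlation of the log2 ratios between pairs lay between -0.02 and 0.07 over all 14390 genes and between 0.01 and 0.23 over the 5507 genes whose mean reached 1000, where the ratios are less noisy. Genes of 1 library share its depth and preparation, so these values are descriptions.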

How the data were processed

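Long RNA of 20 mouse libraries was sequenced. Per the labels and the study's methods, the authors trimmed reads with cutadapt, mapped them to GRCm38 with STAR, counted sense reads per gene with featureCounts and scaled each library by its DESeq2 size factor. The deposited values are these normalized counts, a signal scaled by 1 factor per library, and 0 columns lacked a sample. Reads recovered from the smallest step of each column gave totals and the input of edgeR and DESeq2; in 2 columns the step is close to 1. No libraries of a group were copies (chi-square per degree of freedom 7.03 to 42.3 over 18 comparisons).

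Normalized counts plus a pseudocount of 1 were fitted on the log2 scale with limma 3.58.1 in R 4.3.3 (trend, pair as block, two-sided, Benjamini-Hochberg adjustment, mean at or above 10), and called genes had an adjusted p-value under 0.05. The date in the labels made the pairs. Deviations of paired libraries from their group means correlated with a mean Pearson r of 0.0114 over all genes and of 0.129 at means of 1000 or more. Other library pairs had -0.0427 there. Deviations within a group cancel out, so this value follows nearly from that of the pairs and is no separate evidence for the pairing. At these means the lowest r of a pair was 0.0482, and 2 of the 4 BMDM–NG-exo libraries correlated best with the BMDM–HG-exo library of their own date. The glucose libraries were fitted separately, without pairs. Alternatives changed the block, the libraries, the pseudocount, the low-value filter, the scaling (quantiles or TMM factors), the variance model, the fold limit and the tool (edgeR 4.0.16, DESeq2 1.42.0), or left out a pair. The fits were tested on simulated data.

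Named were up to 12 called genes a direction by p-value, the genes the study names, up to 3 of smallest p-value a list, and markers. The members and the hand-written lists were chosen with earlier results of these data known. GENCODE M21 held 14421 of the 14456 identifiers and gave gene types, positions and overlaps. Figures were drawn in Python 3.11.15 with matplotlib 3.10.9.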

Additional observations from a re-analysis of the deposited data

Results flagged for a closer look

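In the 4 libraries of a group, 1 value stood apart from the other 3 in 8 of 117 groups checked, where chance gives about 1 in 20. Both libraries at the low end for Glul were among them, 8841 normalized counts with BMDM–NG-exo in pair 3 and 7697 with BMDM–HG-exo in pair 1. With BMDM–NG-exo, pair 3 was also low for Rasgrp3 (2338) and Slc2a1 (1226), and pair 1 was low for Adgre4 (228), although its distance to the others was only about 5 normalized counts. With PBS, pair 1 was low for Ralgapa2 (4336), and pair 3 was high for Bcl2 (241) and for the mitochondrial share of the reads (8.38%). The adjusted p-value of Rasgrp3, 0.0390 with all pairs, was 0.29, 0.1, 0.25 and 0.0248 without pairs 1 to 4. That of Glul was 0.409, 0.088, 0.0603 and 0.121. Neither loss was confined to the pair of a flagged library.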

How the results depend on the processing

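The 32 calls rest on the pairs and on the variance trend. With no replicate block, 1 gene was called with 8 libraries and 2 with the PBS libraries added, and DESeq2 without the block called 21, of which 15 were among the 32. In limma without the trend 0 genes were called, with 924 at an unadjusted p-value under 0.05. Leaving out a pair gave between 8 and 25 genes. The cause was not tested beyond the loss of 2 libraries with each pair. The remaining alternatives called 25 to 47 genes, 37 with a robust prior and 47 with DESeq2 and the block, of which 27 and 25 were among the 32. Of the 32 genes, 30 kept their direction in every alternative, and Gm23935 and mt-Rnr2 did so in all but the quantile normalization, which gives the most abundant genes a common value in every library, so that these could not differ. Of the 32, 5 were called whichever pair was left out, and 12 were called in none of these 4 fits. The genes that moved with glucose by at least 0.5 on the log2 scale had larger exosome medians, 0.0382 for the higher and -0.0662 for the lower genes. The pairs differed, with medians of -0.0435, -0.002, 0.0827 and 0.13 for the higher and of -0.0105, -0.0748, -0.0509 and 0.000375 for the lower genes in pairs 1 to 4. With 4 pairs and 3 residual degrees of freedom, calls lean on the shared variance, only 2 of the 32 genes had a mean under 500, and a gene that was not called was not shown to be the same in both groups.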
